A study of Homo sapiens with 8 samples.

Results

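The pro-survival BCL2 family was described here by its 6 human members, BCL2, BCL2L1, BCL2L2, MCL1, BCL2A1 and BCL2L10, out of 20296 genes named on the arrays. The members were chosen as a gene family and were found by their transcript accessions, which matched 8 probes. A gene was read through the probe with the highest mean level over the 8 arrays. RNA of MCF10A cells, a non-tumorigenic line of human mammary epithelium, was measured in cells labelled as having wild-type p53 (p53+/+) and in cells labelled as p53-null (p53-/-). Untreated cells were harvested at 0 h, and the other cells at 12, 24 and 48 h after treatment with doxorubicin (adriamycin, ADR), a drug that damages DNA, at 0.5 μg/ml for 2 h according to the sample labels. The methods of the study state a higher dose than the labels, so the dose is uncertain. Each genotype and time point was measured on 1 single-colour array, so that 8 arrays held 8 different conditions. The sources used here do not state how p53 was lost in the p53-/- cells or whether they descend from 1 clone.

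The proteins of this family sit mainly at the outer membrane of mitochondria and keep cells alive by holding 2 other groups of BCL2 relatives in check. The effectors BAX and BAK1 open pores in that membrane, and the BH3-only proteins, among them BBC3 (PUMA) and PMAIP1 (NOXA), are sensors of stress that bind into a groove of the pro-survival proteins. BCL2L1 encodes BCL-XL and BCL2L2 encodes BCL-w, while MCL1 encodes a short-lived protein that is degraded and made anew all the time. BCL2A1 encodes BFL-1, best known as a target of NF-kB in blood cells, and BCL2L10 encodes a member best known from oocytes. p53 is known to induce genes of the other side of this balance, BBC3 and BAX among them, after damage to DNA.

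The label of 1 array was at odds with part of its data, which is stated before the results that use it. All levels are log2 ratios of the signal to the 75th percentile of signals on that array. CDH1, the gene of the epithelial adhesion molecule E-cadherin, was at -3.12 on the array labelled p53+/+ 0 h, against -3.53 on the p53-/- 0 h array and 1.43 to 2.11 on the treated p53+/+ arrays. The fibroblast-associated gene DCN, for the matrix protein decorin, was at 5.76 there, against 5.88 on the p53-/- 0 h array and 2.10 to 2.38 on the treated p53+/+ arrays. LUM, for the matrix protein lumican, was at -1.32 there and at -1.09 on the p53-/- 0 h array, and was not well above background on the treated p53+/+ arrays. In these markers the array was thus like the p53-/- arrays, and it is called the array labelled p53+/+ 0 h throughout. Not every gene read so. The p53 target CDKN1A was at -1.13 there, against -2.95 on the p53-/- 0 h array. PDGFRB, another fibroblast marker, was at -5.84 there, against -4.01 on the p53-/- 0 h array and -6.69 to -6.17 on the treated p53+/+ arrays. Why the array read so was not tested. Differences between the genotypes after treatment do not use it and come first below. The treated arrays matched their labels in CDKN1A (p21), the classical p53 target, which was at 2.55, 2.63 and 2.70 in p53+/+ cells and at -0.94, -0.63 and -0.47 in p53-/- cells at 12, 24 and 48 h. MDM2, another p53 target and the ligase that degrades p53, was at 1.29 to 1.76 on the treated p53+/+ arrays and at -2.03 to -1.32 on the treated p53-/- arrays.

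The treated p53+/+ and p53-/- arrays also differed in markers of cell type. Counts here are of genes that passed the limma test of treated arrays described below. In that test 10.4% of all probes were higher and 7.46% lower in p53+/+ cells. Of 6 epithelial and basal mammary markers, 5 were higher in treated p53+/+ cells, and TP63 did not pass. Of 4 fibroblast markers that could be fitted, all 4 were lower there, but COL1A1, PDGFRB and LUM were not well above background on the treated p53+/+ arrays and passed the filter through the other arrays, and with normexp PDGFRB turned to 0.13. Of 4 haematopoietic markers that could be fitted, 1 (CD14) was lower, and MS4A1 was not well above background on any array. Of 3 endothelial markers, 1 (PECAM1) was lower, likewise on readings not above background. All 8 arrays were on 1 slide, with the p53-/- arrays in one column of positions and the p53+/+ arrays in the other, so that position and genotype cannot be told apart. In RNA of a whole culture, fewer cells of a type and less RNA per cell cannot be told apart either. The part of the marker differences in the results below was not tested.

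Promoter sequences are shown for the members that differed in opposite directions between treated genotypes, BCL2 and BCL2L1. They run from 250 bases before to 50 bases after an annotated start site, 5′ to 3′ on the strand of the gene, which is the minus strand for both, and come from RefSeq on GRCh38.p14. The window of BCL2 lies at chr18:63319720-63320019. BCL2L1 has 2 annotated start sites, with windows at chr20:31723914-31724213 and chr20:31722819-31723118. Capitals mark TATAAA and GGGCGG, on either strand, which do not overlap here.
BCL2: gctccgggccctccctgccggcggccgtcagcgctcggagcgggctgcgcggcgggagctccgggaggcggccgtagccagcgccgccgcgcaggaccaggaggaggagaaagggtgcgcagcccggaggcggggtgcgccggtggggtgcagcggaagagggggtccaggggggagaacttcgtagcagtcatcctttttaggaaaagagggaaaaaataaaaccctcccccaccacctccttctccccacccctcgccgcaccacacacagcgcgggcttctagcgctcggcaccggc
BCL2L1, first start site: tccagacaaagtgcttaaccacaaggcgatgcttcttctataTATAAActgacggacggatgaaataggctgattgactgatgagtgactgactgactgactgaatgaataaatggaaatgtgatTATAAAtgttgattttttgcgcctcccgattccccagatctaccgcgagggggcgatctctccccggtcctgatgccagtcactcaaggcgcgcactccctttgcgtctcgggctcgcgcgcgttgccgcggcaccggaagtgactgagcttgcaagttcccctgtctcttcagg
BCL2L1, second start site: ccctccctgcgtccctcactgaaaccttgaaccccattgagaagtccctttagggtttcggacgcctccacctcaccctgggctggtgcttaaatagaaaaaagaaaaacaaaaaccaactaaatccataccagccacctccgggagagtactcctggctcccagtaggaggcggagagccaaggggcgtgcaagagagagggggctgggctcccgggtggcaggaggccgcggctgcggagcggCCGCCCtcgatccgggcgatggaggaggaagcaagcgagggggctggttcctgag
The window of BCL2 was rich in G and C, at 70.7%, against a median of 58.7% over 35116 promoter windows of the same length, and its letters held neither motif. The first window of BCL2L1 had 52.0% G and C and held TATAAA at -208 and -125 from the start site, and the second had 61.3% and held GGGCGG, on the other strand, at -5. BCL2A1, whose window at chr15:79971147-79971446 on the minus strand had 41.0% G and C, held TATAAA at -70. Over all windows, 11.5% held TATAAA and 45.0% held GGGCGG. A p53 half-site was found in 0 of the 4 windows of members and in 6.63% of all windows, and an NF-kB site in 0 of 4 and in 11.3%. These matches describe letters in a short window and are not sites of binding. Promoters of MCL1, BCL2L2 and BCL2L10 are not shown.

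After doxorubicin the members fell into 3 groups by genotype. BCL2 was much lower in p53+/+ than in p53-/- cells, BCL2L1 and BCL2L2 were higher in p53+/+ cells, and MCL1, BCL2A1 and BCL2L10 did not pass the test, which does not show that they did not differ. The test compared the 3 treated p53+/+ arrays with the 3 treated p53-/- arrays (limma, adjusted p-values over 28947 probes that were well above background on at least 1 array), with time points standing in for replicates. Its p-values thus set the difference between genotypes against movement over time and not against the spread between cultures. All 6 members passed the filter on dim probes, but only 4 were well above background on all 8 arrays. Of the 6, 3 passed, against 17.9% of all probes, 10.4% higher and 7.46% lower in p53+/+ cells. Of these, BCL2 was not well above background on the treated p53+/+ arrays and passed the filter only through the other arrays.

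**Figure D1:**
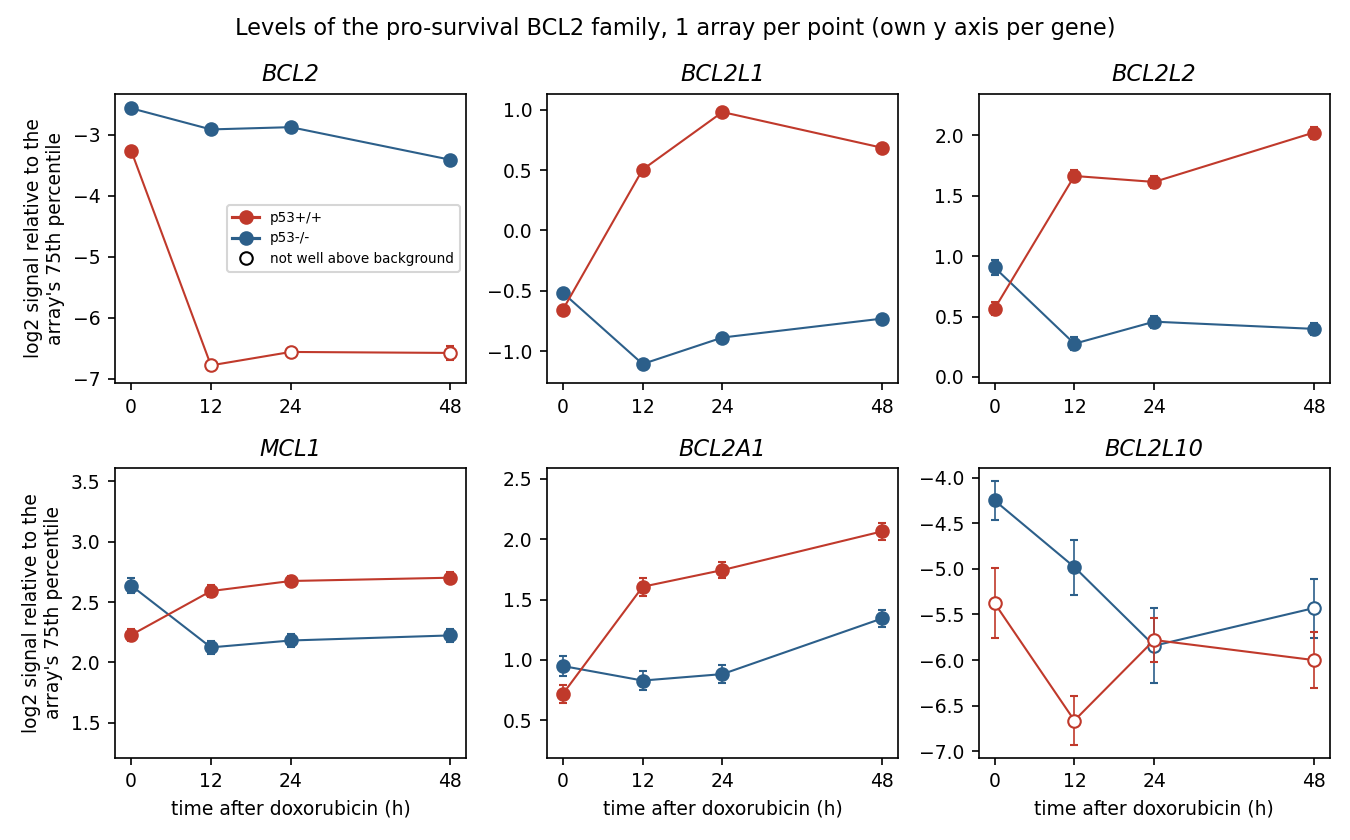
Level of each member (log2 signal relative to the 75th percentile of the array, own y axis per gene) against time after doxorubicin, 1 array per point. Error bars are the technical SD of the level, open symbols are not well above background, and the red point at 0 h is the array labelled p53+/+ 0 h. BCL2 lies near background at all 3 treated p53+/+ points, while BCL2L1 and BCL2L2 lie above every other point there.

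BCL2, the founding member of the family, was detected well above background in p53-/- cells at every time. Its level there was -2.56, -2.91, -2.87 and -3.41 at 0, 12, 24 and 48 h. The array labelled p53+/+ 0 h read -3.26. On the p53+/+ arrays at 12, 24 and 48 h it was not well above background, with readings of -6.78, -6.56 and -6.58. The treated groups did not overlap, and the array labelled p53+/+ 0 h stood among the p53-/- arrays, between those at 12 h and 48 h. Since the low readings have only an upper bound, BCL2 signal was at least 2.97-fold higher in treated p53-/- than in treated p53+/+ cells. The bound sets the p53-/- mean against the lowest signal that was well above background on each p53+/+ array. By time point the bound was at least 3.62-fold at 12 h, 3.1-fold at 24 h and 2.32-fold at 48 h. The fitted log2 difference on the measured readings was -3.58 (SE 0.22, limma adjusted p = 0.00044). The probe passed the filter only through the other arrays, and the SE and p-value rest in part on readings not above background. The bound was at least 3.25-fold with scaling to the median of each array and at least 4.47-fold with no scaling. With another background correction (normexp, which adds an offset and compresses dim signals), the fitted difference was -0.93 and still passed.

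A second probe of BCL2, for the transcript NM_000657 in place of NM_000633, gave the same pattern of detection. It read -3.23, -3.43, -3.33 and -3.76 in p53-/- cells and -3.65 on the array labelled p53+/+ 0 h. On the treated p53+/+ arrays it was not well above background, at -5.44, -6.66 and -6.49. Its bound was at least 2.18-fold, and its fitted difference was -2.69 (SE 0.35, limma adjusted p = 0.0048). It too passed the filter only through the other arrays. This probe was printed in 2 spots and the first in 10, whose log2 signals had an SD of 0.0823 to 0.184 within an array where they were above background.

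**Figure D2:**
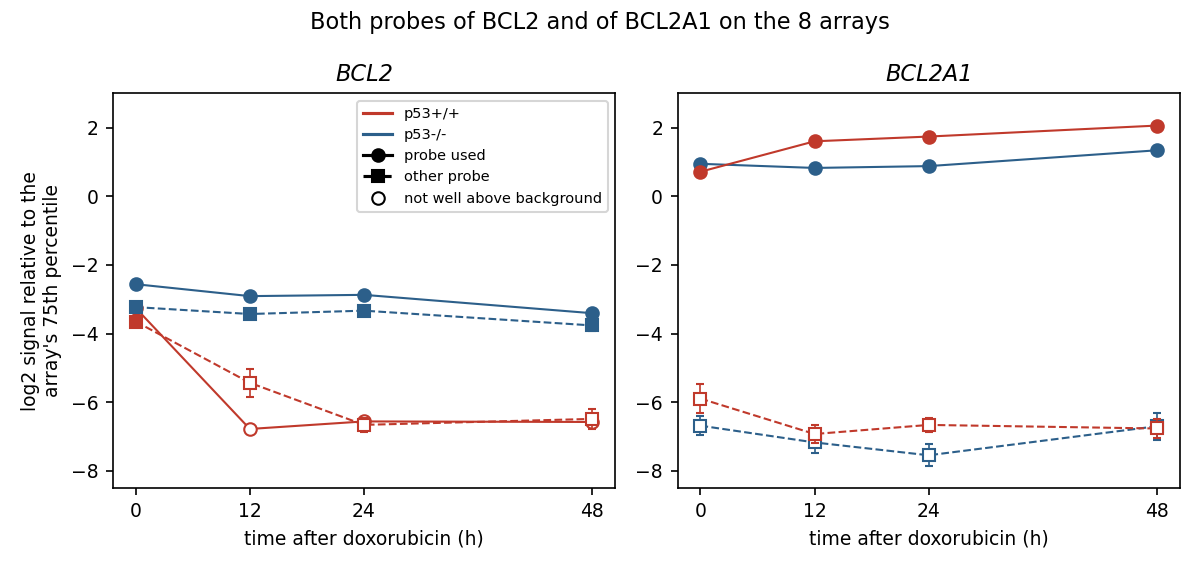
Both probes of BCL2 and of BCL2A1, level (log2 signal relative to the 75th percentile of the array) against time after doxorubicin, with circles and full lines for the probe used and squares and dashed lines for the other. Error bars are the technical SD, and open symbols are not well above background. Both BCL2 probes read low on the treated p53+/+ arrays, while the second BCL2A1 probe is dim on all 8 arrays.

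BCL2L1, which encodes BCL-XL, was detected on each of the 8 arrays. Its level was 0.50, 0.98 and 0.68 at 12, 24 and 48 h in p53+/+ cells. In p53-/- cells it was -1.11, -0.89 and -0.73 at those times and -0.52 at 0 h, and on the array labelled p53+/+ 0 h it was -0.66. The treated groups did not overlap, and every treated p53+/+ array lay above every other array. The mean was 0.72 ± 0.24 (SD over 3 times) in treated p53+/+ and -0.91 ± 0.19 in treated p53-/- cells. The difference of 1.63 (SE 0.21), or 3.1-fold, passed the test (limma adjusted p = 0.0046). Over spots of 1 array its log2 signals had an SD of 0.0249 to 0.0794, which covers 1 array and not the spread between cultures. With no scaling it was 1.04 and still passed (limma adjusted p = 0.022). Without the 24 h arrays it was 1.51 and no longer passed (limma adjusted p = 0.11).

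BCL2L2, which encodes BCL-w, followed a similar order. Its level was 1.66, 1.61 and 2.02 at 12, 24 and 48 h in p53+/+ cells. It was 0.91, 0.27, 0.46 and 0.40 at 0, 12, 24 and 48 h in p53-/- cells and 0.56 on the array labelled p53+/+ 0 h. Again every treated p53+/+ array lay above every other array, and the p53+/+ readings at 12 and 24 h differed by about the technical SD of a reading (0.0468 to 0.0522). The difference between treated genotypes was 1.39 (SE 0.19), or 2.62-fold (limma adjusted p = 0.0059). With no scaling it was 0.80, or 1.74-fold, and still passed (limma adjusted p = 0.017). Without the 24 h arrays it was 1.51 and no longer passed (limma adjusted p = 0.11).

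MCL1 was well above background on all 8 arrays. Its level in p53+/+ cells was 2.59, 2.67 and 2.70 at 12, 24 and 48 h. In p53-/- cells it was 2.64 at 0 h and then 2.12, 2.18 and 2.22, and on the array labelled p53+/+ 0 h it was 2.23. The treated groups did not overlap, but the p53-/- 0 h array lay among the treated p53+/+ arrays, and the array labelled p53+/+ 0 h lay just above the treated p53-/- arrays, level with that at 48 h. The difference of 0.48 (SE 0.16), or 1.39-fold, did not pass (limma adjusted p = 0.091). With no scaling the sign turned, to -0.11, and the groups overlapped. With the normexp correction it was 0.40 and passed (limma adjusted p = 0.045).

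BCL2A1 was read by 2 probes of the same transcript that disagreed. The brighter probe, printed in 1 spot, was at 1.61, 1.74 and 2.06 at 12, 24 and 48 h in p53+/+ cells. It was at 0.95, 0.83, 0.88 and 1.34 at 0, 12, 24 and 48 h in p53-/- cells and at 0.72 on the array labelled p53+/+ 0 h. The treated groups did not overlap, and the reading at 48 h was the highest of its genotype in both. The difference of 0.79 (SE 0.23), or 1.73-fold, did not pass (limma adjusted p = 0.060). With no scaling it was 0.19 and the groups overlapped. It passed with normexp (0.66, limma adjusted p = 0.033), among probes above background on all fitted arrays (limma adjusted p = 0.029), with no filter on dim probes (limma adjusted p = 0.039) and with time point as a block (limma adjusted p = 0.049). The other probe was not well above background on any of the 8 arrays, with readings between -7.55 and -5.90, so the level of BCL2A1 rests on 1 spot per array and is uncertain.

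BCL2L10 was near the limit of detection. It was well above background only on the p53-/- arrays at 0 h and 12 h, at -4.25 and -4.98. The other 6 readings lay between -6.66 and -5.38, with technical SDs of 0.237 to 0.412, and have no order. No fold is given between treated genotypes, since both treated groups held arrays below background.

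**Figure D3:**
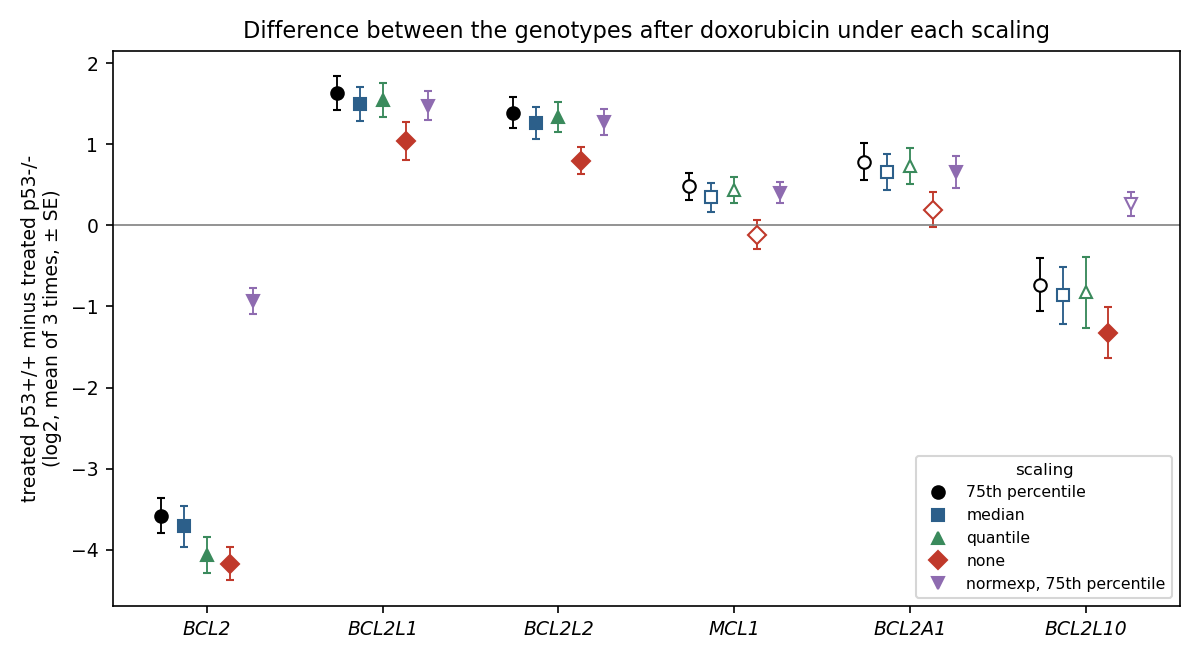
Difference between treated p53+/+ and treated p53-/- cells for each member (log2, mean of 3 time points, error bars SE), with the 5 scalings or corrections side by side. Filled symbols have a limma adjusted p under 0.05. BCL2 lies below 0 and BCL2L1 and BCL2L2 above 0 under all 5, while MCL1 crosses 0 with no scaling.

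Scaling mattered for the smaller differences. The median difference of all 28947 probes was 0.08 with the 75th percentile, -0.05 with the median and -0.51 with no scaling. Between the treated groups 5 of 6 members did not overlap, 4 higher and 1 lower in p53+/+ cells, where 24.7% of all probes were higher and 16.6% lower without overlap. With no scaling 8.05% of all probes were higher without overlap, and among the members BCL2L1 and BCL2L2 were.

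In p53-/- cells 5 of the 6 members stayed within 2-fold of their 0 h level after doxorubicin. At 0 h and the 3 later times the level of BCL2L1 went from -0.52 to between -1.11 and -0.73, that is 1.16 to 1.51-fold lower. BCL2L2 was 1.37 to 1.55-fold lower, and MCL1 1.33 to 1.43-fold lower. BCL2 was 1.24 to 1.80-fold lower, with the lowest level at 48 h. BCL2A1 was 1.09-fold lower at 12 h, 1.05-fold lower at 24 h and 1.31-fold higher at 48 h. Only BCL2L10 was lower by at least 2-fold, at 24 and 48 h, on readings that were not above background. Of all probes 5.79%, 5.49% and 7.81% were at least 2-fold lower at 12, 24 and 48 h. All 3 treated arrays were below the 0 h array for 5 of 6 members, against 35.6% of all probes. With no scaling this did not hold for BCL2, BCL2L1 or MCL1, of which BCL2L1 was 0.25 higher on the log2 scale at 48 h. With 1 array per time point these changes have no test.

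Changes in p53+/+ cells rest on the array labelled p53+/+ 0 h and are given with both possible baselines. Relative to that array BCL2L1 was 2.24, 3.11 and 2.53-fold higher at 12, 24 and 48 h. Relative to the p53-/- 0 h array it was 2.03, 2.82 and 2.30-fold higher, so it passed 2-fold at every time with either baseline on this scale. With no scaling and the first of these baselines its log2 changes were 0.85, 1.33 and 0.73, and with median scaling 0.98 at 12 h, so that 2-fold was then not reached at each time. Relative to the array labelled p53+/+ 0 h, 12.2%, 13.9% and 17.3% of all probes were at least 2-fold higher at these times. BCL2L2 was 2.14, 2.07 and 2.75-fold higher relative to the array labelled p53+/+ 0 h, and 1.69, 1.63 and 2.17-fold higher relative to the p53-/- 0 h array. BCL2A1 was 1.85, 2.04 and 2.54-fold higher with the first baseline and 1.58, 1.73 and 2.17-fold with the second. MCL1 was 1.29, 1.36 and 1.39-fold higher with the first, but with the second its log2 changes were -0.05, 0.04 and 0.06, all within the technical SD of 0.0737 to 0.0750. BCL2 was at least 2.85, 2.37 and 2.58-fold lower than on the array labelled p53+/+ 0 h, and at least 4.61, 3.84 and 4.17-fold lower than on the p53-/- 0 h array. For BCL2L10 the bounds were small, at 1.43, 1.19 and 1.30-fold lower than on the p53-/- 0 h array, or 0.52, 0.26 and 0.37 on the log2 scale. The reading of that array had a technical SD of 0.21, which the bounds do not count. BCL2L10 has no fold relative to the array labelled p53+/+ 0 h, where it was not above background.

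The interaction of genotype and treatment asks whether the change from 0 h differed between genotypes, and it too uses the array labelled p53+/+ 0 h. Among the members the fit passed for BCL2, with -2.88 on the log2 scale (SE 0.43, limma adjusted p = 0.035), on treated p53+/+ readings that were not above background. With those readings at their bound the interaction was at least 0.87 in size, a value with no test. Of the 6 members 1 passed, where 1.74% of all probes passed and 0.746% passed with this sign. The second BCL2 probe gave -2.27 and did not pass (limma adjusted p = 0.17), and the first probe lost its call with normexp, the mean of both probes, any time point left out or time point as a block. For BCL2L1 the interaction was 1.77 (SE 0.42, limma adjusted p = 0.0997) and for BCL2L2 1.73 (SE 0.39, limma adjusted p = 0.086). Both passed with normexp (limma adjusted p = 0.040 and 0.032), and BCL2L2 also among probes above background on all fitted arrays (limma adjusted p = 0.045). For MCL1 it was 0.89 (limma adjusted p = 0.23) and for BCL2A1 1.02 (limma adjusted p = 0.32). For BCL2L10, on readings mostly below background, it was 0.40 (limma adjusted p = 0.81).

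Among the effectors, RNA of BAX and BAK1 was higher in treated p53+/+ cells. BAX was at 4.11, 4.17 and 4.42 at 12, 24 and 48 h in p53+/+ cells and at 2.68, 2.74 and 2.56 in p53-/- cells. The difference of 1.58 (SE 0.18), or 2.99-fold, passed (limma adjusted p = 0.0031). BAK1 was at 2.26, 2.19 and 2.53 against 1.11, 0.73 and 1.03, a difference of 1.37, or 2.59-fold (limma adjusted p = 0.0070). BOK did not pass, so that 2 of 3 effectors were higher, with a median difference of 1.37. Over all 15811 genes fitted, 1812 were higher and 1487 lower, with a median difference of 0.04.

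The BH3-only genes did not move as 1 group. Of 8, 1 was higher, 2 were lower and 5 did not pass, with a median of -0.27, against 1812 higher and 1487 lower of all 15811 genes fitted. With no scaling 4 were lower. For all counts with no scaling, here and below, 9393 of 28947 probes passed, of which 14.5% were higher in p53+/+ cells. BBC3 (PUMA) was at 4.13, 4.48 and 3.94 in treated p53+/+ cells and at -0.91, 0.27 and 0.14 in treated p53-/- cells. Its difference of 4.35, or 20.4-fold, passed (limma adjusted p = 0.00099). BMF, a BH3-only protein tied to loss of adhesion, was at -0.87, -0.47 and -1.06 in treated p53-/- cells. On the treated p53+/+ arrays it was not well above background, at -6.20, -4.47 and -5.94, so its signal was at least 14.1-fold higher in p53-/- cells (limma adjusted p = 0.0020 for the fitted readings). BMF thus had the same pattern of detection as BCL2 on these 8 arrays, well above background on 5 and not on the 3 treated p53+/+ arrays, and so had the markers COL1A1, LUM and PECAM1. BID, cleaved by caspases to its active form, was 1.91-fold lower in treated p53+/+ cells (log2 difference -0.93, limma adjusted p = 0.039).

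**Figure D4:**
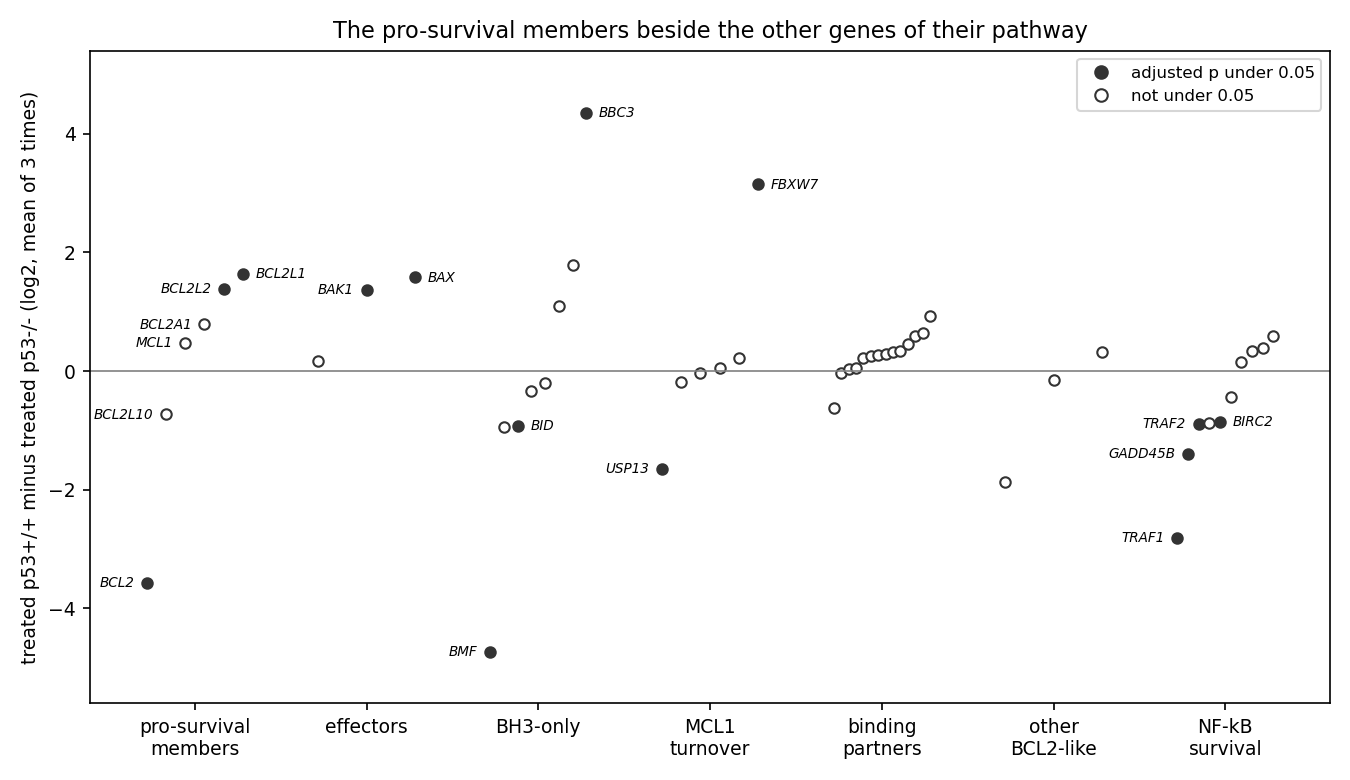
Difference between treated p53+/+ and treated p53-/- cells (log2, mean of 3 time points) for the 6 pro-survival members and the fitted genes of 6 related lists, 1 point per gene in order of size within a list. Filled points have a limma adjusted p under 0.05. The points of BCL2, BCL2L10, BMF and TRAF1 rest on readings not above background in treated p53+/+ cells and show fitted values, not bounds.

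Genes of MCL1 turnover were listed because the level of MCL1 protein depends on them. Of 6 that could be fitted, 1 was higher, 1 was lower and 4 did not pass, against 1812 higher and 1487 lower of all 15811 genes fitted. With no scaling 2 of them were lower. FBXW7, the subunit of a ubiquitin ligase that recognises MCL1, was at 1.55, 1.68 and 1.5 in treated p53+/+ cells and at -1.19, -1.57 and -1.94 in treated p53-/- cells. The difference of 3.14, or 8.85-fold, passed (limma adjusted p = 0.00078). USP13, a deubiquitinase known to stabilise MCL1, was at -1.86, -1.93 and -1.96 against -0.18, -0.19 and -0.44, which is 3.14-fold lower (limma adjusted p = 0.0025). These are levels of RNA, and MCL1 protein was not measured.

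Of 14 genes of binding partners, such as the autophagy protein BECN1 and the calcium channels ITPR1 to ITPR3, 0 passed in limma in either direction, with 4 at an unadjusted p under 0.05, and their median difference was 0.28. With no scaling 1 of them passed, lower in p53+/+ cells. Of 3 other BCL2-like genes fitted, 0 passed in limma, with 1 at an unadjusted p under 0.05, and with no scaling 1 was lower. Of 10 NF-kB survival genes, 4 were lower in treated p53+/+ cells, 0 were higher and 6 did not pass, with a median of -0.65. Of all 15811 genes fitted, 1487 were lower and 1812 higher. BCL2A1, itself known as an NF-kB target, had a difference of the opposite sign that did not pass. TRAF1, an adaptor of TNF receptors, was at -2.89, -3.66 and -3.86 in treated p53-/- cells and not well above background on the treated p53+/+ arrays, a difference of at least 2.24-fold (limma adjusted p = 0.0035 for the fitted readings). GADD45B, a stress sensor, was 2.64-fold lower (limma adjusted p = 0.015) and TRAF2 1.85-fold lower in treated p53+/+ cells (limma adjusted p = 0.040). BIRC2, which encodes an inhibitor of apoptosis, was the fourth. With no scaling 5 of the 10 were lower, and the pathway genes named as passing here and above kept their sign.

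Over the 8 arrays the 4 members above background on all of them had Pearson r from 0.742 between MCL1 and BCL2A1 to 0.956 between BCL2L1 and BCL2L2. The values share their arrays and scaling and are a description. A typical r between other genes is not given, and 24.7% of all probes were higher in treated p53+/+ cells without overlap. With no scaling the treated difference of MCL1 turned to -0.11. Among 11828 genes above background on all 8 arrays, those most like BCL2L1 were SDHA (r = 0.996), TEP1 (0.995) and PRKAB2 (0.994). Most like BCL2L2 were PCDHA11 (0.994), MPZL2 (0.993) and RPS27 (0.991), and most like MCL1 were SNX33 (0.986), MOB3A (0.983) and GNA15 (0.976). Most like BCL2A1 were ADIRF (0.991), GJA3 (0.988) and PMVK (0.985). SDHA, an enzyme subunit of the citric acid cycle, spanned 3.81 to 5.14 over the arrays, and MPZL2, an adhesion molecule of epithelia, -2.42 to 1.96.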

How the data were processed

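Total RNA of 8 samples was labelled with Cy3 and hybridised to Agilent SurePrint G3 Human GE arrays on 1 slide. The authors deposited the output of Agilent Feature Extraction 10.7.3.1, whose header names the human build hg19. The deposited processed signal, a linear intensity from which the software had already taken the background, was used. No normalization between arrays is stated by the authors. The series table held the same intensities, with 503808 of 503808 values equal, and gave no alternative.

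Of 62976 spots per array, 58717 were not controls. Spots marked as uneven or as outliers (233 to 370 per array) were left out, 0 spots were saturated, and 42391 probes remained. Signals were divided by the 75th percentile of their array and put on the log2 scale, and spots that repeat a probe were averaged. The 75th percentile was 659 to 1193, and 49.8% to 62.9% of probes were well above background. Accessions matched 27227 probes (64.2%) to 20296 genes of GRCh38.p14, and only promoter windows have coordinates, those of GRCh38.p14, since the files use hg19. Groups came from the sample labels. Technical SDs came from the spots of a probe where it had 10 and otherwise from probes printed in 10 spots at a like signal, and they cover 1 array, not cultures. Their number, 1 array per condition, limits the precision.

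Fits used limma 3.58.1 (lmFit, eBayes) in R 4.3.3 with Benjamini-Hochberg adjustment over 28947 probes and a threshold of 0.05, with 4 residual degrees of freedom. They were tested on simulated data, where most of the added log2 changes of 1 and 2 were missed. Fewer probes were changed there than passed in the data, so the share missed there does not carry over to these fits. A result that did not pass still does not show that there was no difference. A change of 2-fold was the size rule for single time points. Alternatives were other scalings, normexp correction (offset 50, on the median spot signal), the mean of all probes, other filters, time points left out or taken as a block, the other baseline and a signal floor. The genes named were the members, CDKN1A and MDM2, up to 3 genes per pathway list with the largest difference that passed, and the 3 genes most correlated with each member that was above background on all 8 arrays. CDH1, DCN, LUM and other marker or list genes named besides were chosen after their values were seen. Some genes that this rule or the marker lists cover are not reported here. The members and lists were chosen with earlier results of these data known.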

Additional observations from a re-analysis of the deposited data

Results flagged for a closer look

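For 4 members the change after doxorubicin was flagged as differing by genotype, for BCL2 by the test and for the other 3 by opposite signs alone. All 4 results rest on the array labelled p53+/+ 0 h, whose levels of CDH1 and DCN read like those of p53-/- cells. For BCL2 the interaction of genotype and treatment was -2.88 on the log2 scale and passed the test across all probes, on treated p53+/+ readings that were not above background. The call was lost with normexp, with the mean of both probes, with the second probe alone, with any time point left out and with a block for time. For BCL2L1, BCL2L2 and MCL1 all 3 treated p53+/+ arrays were above the array labelled p53+/+ 0 h and all 3 treated p53-/- arrays below the p53-/- 0 h array, with interactions of 1.77, 1.73 and 0.89 that did not pass. Of all probes 35.6% were below the 0 h array at all 3 times in p53-/- cells, and the share with opposite signs is not given. With no scaling this pattern did not hold for BCL2L1 and MCL1. BCL2L1 in p53-/- cells was then at log2 changes of -0.24, 0.02 and 0.25 at 12, 24 and 48 h. MCL1 kept its signs at 12 and 24 h and reversed at 48 h, to -0.14 in p53+/+ and 0.05 in p53-/- cells. When p53+/+ cells were set against the p53-/- 0 h array instead, BCL2L1 and BCL2L2 still had opposite signs. MCL1 at 12 h did not, and its log2 changes in p53+/+ cells of -0.05, 0.04 and 0.06 were all within the technical SD.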

How the results depend on the processing

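Of 66 alternative values of the treated genotype difference of a member, 56 kept their sign and their side of the threshold. The calls of BCL2, BCL2L1 and BCL2L2 held under every alternative that could be fitted, except that without the 24 h arrays BCL2L1 (1.51, adjusted p = 0.11) and BCL2L2 (1.51, adjusted p = 0.11) did not pass. Leaving out each time point gave 1.51 to 1.74 for BCL2L1, 1.27 to 1.51 for BCL2L2 and -3.78 to -3.43 for BCL2. BCL2 could not be fitted among probes above background on all fitted arrays. MCL1 turned to -0.11 with no scaling, and BCL2L10 to 0.26 with normexp. The interaction of BCL2 lost its call with normexp (-0.46), with the mean of all probes (-2.57), without single time points (-3.09 to -2.74) and with time point as a block (-2.88, adjusted p = 0.085), whereas the block took no call of a treated difference away and gave one to BCL2A1 (0.79, adjusted p = 0.049). Calls were gained for the treated difference of MCL1 with normexp, of BCL2A1 with normexp and both other filters, and of BCL2L10 with no scaling (-1.32, adjusted p = 0.024), and for the interactions of BCL2L1 and BCL2L2 with normexp and of BCL2L2 with the stricter filter. The interaction of BCL2L10 turned to -0.42 with no scaling and ran from -0.000302 to 0.87 with a time point left out. The change of BCL2L10 at 12 h in p53+/+ cells turned to 0.40 with a signal floor. Both readings then stood at the floors of their arrays, -4.77 at 12 h and -5.17 at 0 h. That value thus measures the floors and not the gene. The count of probes with a treated difference, 5176, was 9393 with no scaling, 9635 with normexp, 12491 with no filter and 291 to 2664 with a time point left out. The share of them higher in p53+/+ cells, 58.3%, was 48.3% with quantile normalization, 45.4% with median scaling, 14.5% with no scaling, 72.5% with normexp and 78.1% with no filter. The count with an interaction, 505, was 1296 with no scaling, 1277 with normexp, 60 with the block and 0 to 42 with a time point left out (without 24 h, 0 in limma, with 3076 at an unadjusted p under 0.05). Apart from the floor value of BCL2L10, the cause of these shifts was not tested. The time points of the labels carry no replicate numbers, so the block pairs arrays by time only. Signal over background limits BCL2, BCL2L10 and the second BCL2A1 probe.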
